A study of Homo sapiens with 16 samples.

Results

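The genes described are 9 subunits of the human SWI/SNF chromatin remodelling complexes, namely ARID1A, ARID1B, ARID2, PBRM1, SMARCA2, SMARCA4, SMARCB1, SMARCC1 and SMARCD2. They were taken by gene symbol from the array annotation, among 19738 genes with a probe set naming only that gene. The study measured total RNA of 16 human T-cell acute lymphoblastic leukaemia (T-ALL) cell lines on 1 Affymetrix U133 Plus 2.0 array per line. T-ALL is a leukaemia of immature T cells, and the lines were ALL-SIL, CCRF-CEM, DU528, HSB-2, JURKAT, KOPT-K1, LOUCY, MOLT-16, MOLT-4, P12-ICHIKAWA, PEER, PF-382, SKW-3, SUP-T11, SUP-T13 and TALL-1. Every line was grown untreated for 24 hours in the same medium and at equal density, so the lines formed 1 group with no control, and each line is an established culture-adapted line. No line was measured more than once, so no value has a replicate and differences between lines are given without a test.

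SWI/SNF complexes use ATP to slide or evict nucleosomes and so open chromatin at promoters and enhancers. Each complex holds a single catalytic ATPase, either SMARCA4 (BRG1) or SMARCA2 (BRM), on a shared core that includes SMARCB1, SMARCC1 or SMARCC2, and a member of the SMARCD group. The canonical BAF complex carries ARID1A or ARID1B, whereas the PBAF complex carries ARID2 and PBRM1 instead, and subunits of both are recurrent targets of loss-of-function mutation in cancer. In thymocytes SMARCA4 is needed for normal T-cell maturation.

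Levels are linear intensities of single probe sets, and differences between lines are on the log2(intensity + 16) scale. Where a gene had several probe sets, the one with the highest mean was taken as its main probe set, and levels are not compared between probe sets. A gene was taken as expressed when at least 3 lines exceeded the median of the whole table, 42.4. All 9 SWI/SNF genes were expressed, as were 13295 of the 19738 genes. The deviation of a line is its log2 value minus the median of the other 15 lines. The 12 poly-A control probe sets, whose RNA is spiked in, had a median SD over the arrays of 0.23, which puts the technical limit for a difference between lines at 0.65 log2 units or 1.57-fold. That limit covers error of the arrays only, not differences between cultures. It is the bound for a difference between single lines and was used unchanged for deviations from a median, where it is stricter.

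Of the catalytic subunits, SMARCA2 differed between most lines, and SMARCA4 had the smallest SD of the 9 genes. SMARCA2 was lowest in P12-ICHIKAWA at 279, had a median of 996 and was highest in DU528 at 2861. Above P12-ICHIKAWA followed CCRF-CEM at 327, TALL-1 at 438, MOLT-16 at 510.4 and JURKAT at 560 with PF-382 at 606, MOLT-4 at 697 and SKW-3 at 835. The upper lines were KOPT-K1 at 1158, PEER at 1438, SUP-T11 at 1527, SUP-T13 at 2379, ALL-SIL at 2408, LOUCY at 2475 and HSB-2 at 2852. No step between neighbours in this order exceeded the technical limit. The largest, 0.63 log2 units from SUP-T11 to SUP-T13, lay just under it. Across the whole series the intensity of DU528 was 10.3 times that of P12-ICHIKAWA. The deviations ran from -1.99 to 1.76, with 7 lines below and 7 lines above the other lines by more than the technical limit, and with only SKW-3 and KOPT-K1 inside it. The SD of 1.13 stood at the 84.9th percentile of all expressed genes.

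The SMARCA2 series was alike on other probe sets. The gene had 7 probe sets, of which 3 were dim, meaning that no line reached 4 times the table median, or 169. The 3 other probe sets that were not dim followed the main one with Pearson r from 0.95 to 0.99 over the 16 lines. All 4 probe sets above the dim level carry the suffix _s_at or _x_at, by which the manufacturer marks probes that may match more than 1 transcript or sequence. The single probe set without such a suffix was dim, with intensities from 26.4 to 155, and did not follow the main one, with r of -0.13.

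**Figure D1:**
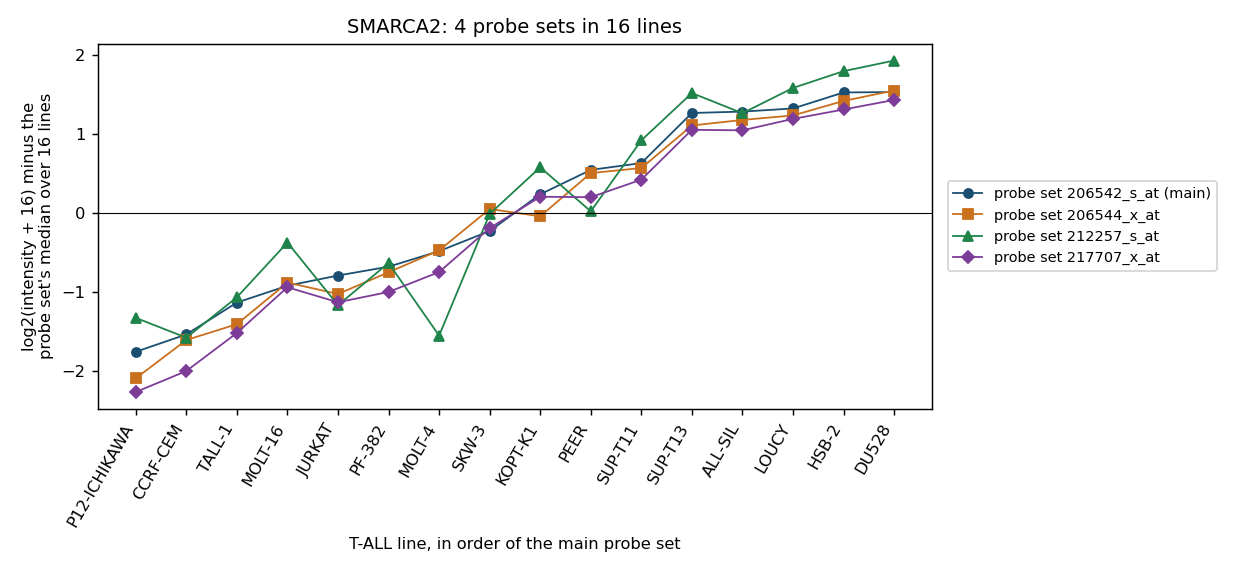
SMARCA2 on the 4 probe sets that were not dim, with the 16 lines ordered by the main probe set and each probe set drawn as log2(intensity + 16) minus its own median over the lines. The 4 traces climb together from P12-ICHIKAWA and CCRF-CEM to HSB-2 and DU528, with r to the main probe set from 0.95 to 0.99.

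SMARCA4, the alternative ATPase, ranged only from 2629 in HSB-2 through a median of 3386 to 4716 in PF-382. No line deviated from the median of the others by more than the technical limit, the extremes being -0.38 and 0.50. Between single lines, 3 of the 120 pairs differed by more than the limit, namely PF-382 above HSB-2, SUP-T11 and DU528, and the largest difference was 0.84. Its SD of 0.21 stood at the 8.48th percentile of expressed genes. Of its 6 other probe sets that were not dim, 5 followed the main one with r from 0.79 to 0.95, and those 5 had their lowest value in SUP-T11. The remaining one had r of -0.06.

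The upstream sequences of both ATPase genes are shown because these paralogues can take the same place in the complex while their levels spread so differently. The 250 bases before the RefSeq gene start (GRCh38.p14) are at chr9:2015097-2015346 on the plus strand for SMARCA2 and at chr19:10960780-10961029 on the plus strand for SMARCA4, with every CG dinucleotide in capitals:
SMARCA2: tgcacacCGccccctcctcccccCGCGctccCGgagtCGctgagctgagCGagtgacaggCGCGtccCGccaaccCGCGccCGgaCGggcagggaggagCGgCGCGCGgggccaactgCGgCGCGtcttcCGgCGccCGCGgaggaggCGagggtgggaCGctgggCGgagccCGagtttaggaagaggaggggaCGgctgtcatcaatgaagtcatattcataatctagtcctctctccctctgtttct
SMARCA4: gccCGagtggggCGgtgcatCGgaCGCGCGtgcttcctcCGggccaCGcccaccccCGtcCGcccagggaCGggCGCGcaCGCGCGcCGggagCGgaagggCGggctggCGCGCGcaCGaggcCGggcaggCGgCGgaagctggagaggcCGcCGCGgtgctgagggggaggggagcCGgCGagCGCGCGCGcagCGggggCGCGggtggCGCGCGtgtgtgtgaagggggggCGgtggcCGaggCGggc
Both stretches are dense in CG, the SMARCA2 stretch with 29 CG dinucleotides and a GC share of 68.8%, the SMARCA4 stretch with 44 and 82.4%. The median of 27305 promoters of this length was 11 CG dinucleotides and 58.0% GC. Of the 9 genes, 7 had an entry in the table. Besides the ATPases, the CG counts were 30 for ARID1A, 26 for PBRM1, 31 for SMARCD2, 16 for SMARCB1 and 5 for ARID1B, which alone lay below the median of all promoters. The GC box GGGCGG, searched on both strands and itself containing a CG, occurred in 3 of the 7 stretches, namely ARID1A, SMARCA2 and SMARCA4, against 42.3% of all promoters. The E-box CAGCTG occurred in ARID1A alone, against 13.8% of all promoters, and the RUNX core TGTGGT, on both strands, in none of the 7 against 10.9%. Neither overlaps the GC box motif. These matches describe letters in the stretch and not binding.

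Across the 16 lines SMARCA2 and SMARCA4 were weakly opposed, with Pearson r of -0.39 and Spearman rho of -0.37. The value was -0.39 without P12-ICHIKAWA and CCRF-CEM, the lines farthest from the median of SMARCA2, and ran from -0.51 to -0.27 when each line was left out in turn. The arrays share a common scaling, so these correlations describe the lines and carry no test. For SMARCA4, 3 of the 120 pairs of lines differed by more than the technical limit, so most of its differences lay within array error. An RNA quality measure moved with SMARCA2. The ACTB ratio, that is the signal of the 3′ control probe set over that of the 5′ one, which rises as RNA is degraded or incompletely copied, ran from 1.44 to 2.03 and had r of -0.67 with SMARCA2 and 0.47 with SMARCA4. With that ratio taken out of both genes, their r was -0.11. The part of RNA quality in the SMARCA2 levels was not tested. The other 7 SWI/SNF genes had r with the ratio between -0.46 for SMARCC1 and 0.09 for ARID1A.

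**Figure D2:**
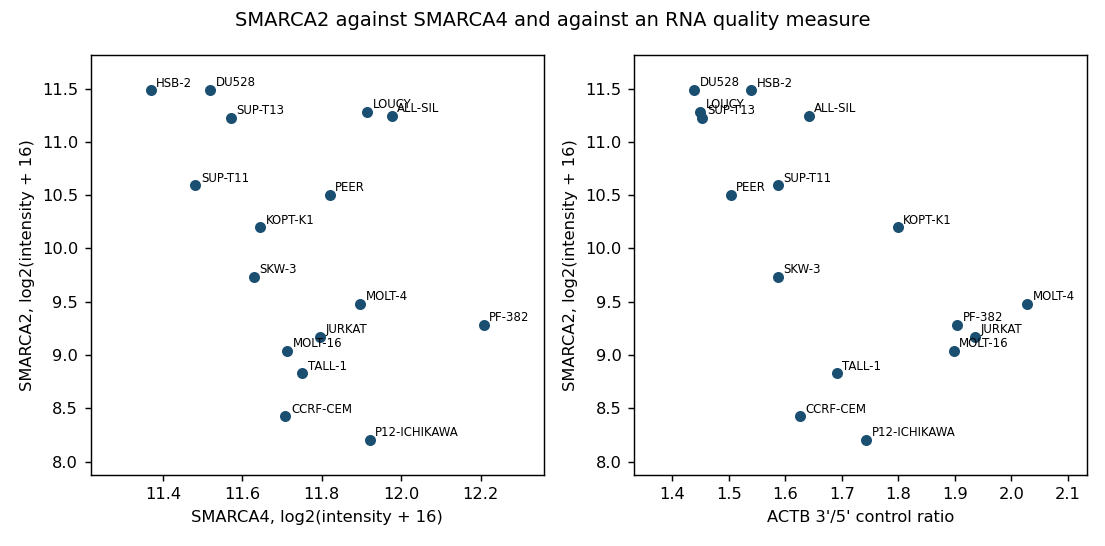
SMARCA2 level, as log2(intensity + 16), plotted against the SMARCA4 level on the same scale (left) and against the ACTB ratio of 3′ over 5′ control signal (right), with 1 point for each of the 16 lines. HSB-2 and DU528 combine the highest SMARCA2 with low SMARCA4 (r of -0.39 over all lines), though their SMARCA4 deviations lie within the technical limit. The lines with a high control ratio tend to have low SMARCA2 (r of -0.67).

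Among the subunits that define the complex type, ARID1A, the DNA-binding subunit of canonical BAF, was at 4.83 in SUP-T11, and in the other 15 lines it ran from 2772 in MOLT-16 to 3842 in P12-ICHIKAWA, with a median over all lines of 3167. SUP-T11 thus stood alone, far below the table median, while the other lines lay close together. With SUP-T11 below the table median, the size of the gap is given as a bound against that median, and the other 15 lines were at least 65.4-fold higher than it. On the log2 scale with the pseudocount the deviation of SUP-T11 was -7.28, and without SUP-T11 the SD fell from 1.82 to 0.14 and the range from 7.53 to 0.47.

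Other ARID1A probe sets gave the same picture. One stood at 3.41 in SUP-T11 and at 652 to 945 elsewhere, and a further one stood at 4.07 in SUP-T11 and at 1653 to 2576 elsewhere. The remaining probe set was dim in all lines, from 61.4 to 104, with SUP-T11 at 63.1, so it does not bear on the level.

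ARID1B, the alternative to ARID1A, gave different orders of the lines on different probe sets. The main probe set ran from 588 in LOUCY through a median of 1098 to 1589 in SKW-3, and LOUCY was the only line beyond the technical limit, with a deviation of -0.89. The 3 other probe sets that were not dim had r of -0.33 to -0.13 with the main one but 0.75 to 0.90 among themselves. On these 3 the lowest line was SUP-T11, at 448, 162 and 209, while on the main probe set SUP-T11 was among the highest, at 1481. The highest line on the 3 was TALL-1 at 1437, PEER at 384 and ALL-SIL at 725. The main probe set has the suffix _x_at and the other 3 have none, so the level of ARID1B in SUP-T11, the line that lacks ARID1A signal, depends on the probe set read. LOUCY was below the median of the other lines on all 4, by 0.24 to 0.43 log2 units on those without the suffix.

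**Figure D3:**
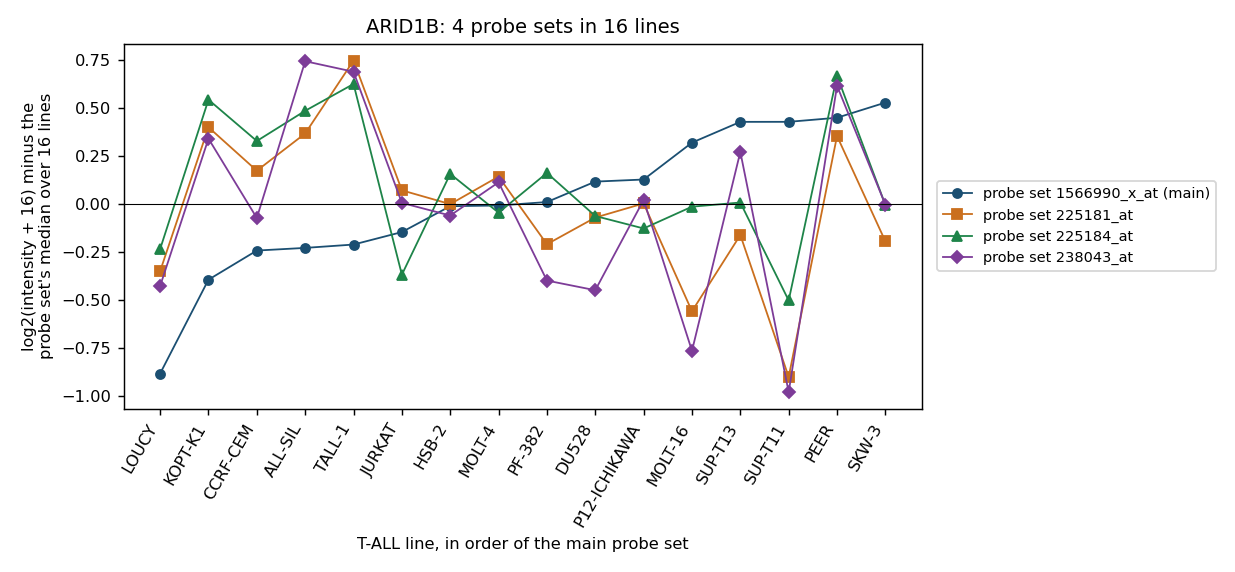
ARID1B on the 4 probe sets that were not dim, with the 16 lines ordered by the main probe set and each probe set drawn as log2(intensity + 16) minus its own median over the lines. The main probe set climbs from LOUCY to SKW-3, whereas the other 3 move together (r from 0.75 to 0.90), peak at TALL-1, PEER or ALL-SIL and are lowest in SUP-T11.

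The relation of ARID1A to ARID1B depended on that choice as well. With the main probe sets r was -0.30 and rho -0.16, and r was -0.24 without SUP-T11 and P12-ICHIKAWA. With the mean of all probe sets of each gene r was 0.41, and with the most variable probe set of each it was 0.53. The most variable ARID1B probe set was lowest in SUP-T11, at 209, as was ARID1A, whose SD without that line was 0.14. For these choices r without SUP-T11 is not given here. No direction of the relation can be given.

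Of the PBAF subunits, PBRM1, which reads acetylated histones through several bromodomains, was at 944 in MOLT-16. In the other 15 lines it ran from 2625 in LOUCY to 3978 in CCRF-CEM, and its median over all lines was 3380. MOLT-16 lay 3.54-fold below the median of the others, a deviation of -1.82, and no other line left the technical limit. All 4 other PBRM1 probe sets that were not dim also had their lowest value in MOLT-16. Their deviations there were -1.69, -1.35, -0.58 and -0.54, those of -0.58 and -0.54 being within the technical limit. Without MOLT-16 the SD of the main probe set was 0.20 in place of 0.48.

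ARID2, which defines PBAF together with PBRM1, was lowest in SUP-T11 at 391 and next lowest in MOLT-16 at 450.5, had a median of 785 and was highest in KOPT-K1 at 1144. SUP-T11, with a deviation of -1.002, and MOLT-16, with -0.80, were the lines beyond the technical limit, and they differed from each other by less than that limit. The 3 other probe sets followed the main one with r from 0.79 to 0.82, and 2 of them were lowest in SUP-T11. ARID2 and PBRM1 had r of 0.50 but rho of 0.15. Without MOLT-16 r was 0.14, so the relation rests on that line. It was 0.59 without SUP-T11 and -0.22 without both.

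Of the shared core, SMARCC1, a scaffold subunit, ran from 1865 in MOLT-16 through a median of 3507 to 4935 in LOUCY. MOLT-16 was the only line beyond the technical limit, with a deviation of -0.95, and the next lowest line was KOPT-K1 at 2756. The 3 other SMARCC1 probe sets had r of 0.95 to 0.97 with the main one and were all lowest in MOLT-16, with deviations from -1.32 to -1.01. Its paralogue SMARCC2 was lowest in the same line, at 578 against a median of 1298. SMARCC1 and SMARCC2 had r of 0.66 and rho of 0.39. Without MOLT-16 r was 0.31.

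SMARCB1, a core subunit that contacts the nucleosome, ran from 639 in SUP-T11 through a median of 978 to 1312 in TALL-1. No line deviated from the median of the others by more than the technical limit, and its other probe sets were dim. Between single lines 8 of the 120 pairs did, each involving SUP-T11 or TALL-1. Its r with SMARCE1, another core subunit, was 0.42 with rho of 0.14, and r was 0.075 without SUP-T11. SMARCD2, a core subunit with a role in granulocyte development, ran from 578 in PEER through a median of 785 to 1131 in ALL-SIL. It had 1 probe set and no line beyond the technical limit from the others, while 12 of the 120 pairs of lines were, with ALL-SIL, DU528 and KOPT-K1 above PEER, SUP-T11, P12-ICHIKAWA and MOLT-16. With SMARCD1, its paralogue, r was 0.09 and rho 0.04.

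**Figure D4:**
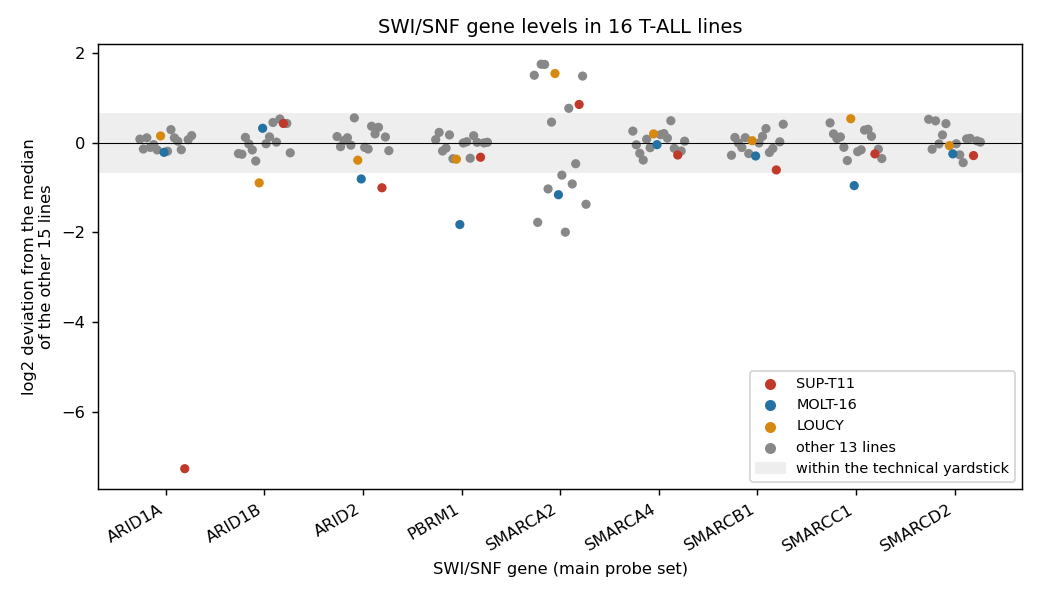
Deviation of each of the 16 lines from the median of the other 15, on the log2(intensity + 16) scale, for the main probe set of each SWI/SNF gene, with the technical limit of 0.65 in grey. SUP-T11 is set apart for ARID1A (-7.28) and MOLT-16 for PBRM1 (-1.82), SMARCA2 spreads from -1.99 to 1.76, and SMARCA4, SMARCB1 and SMARCD2 stay within the limit.

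Counted over the 9 genes, the SWI/SNF group varied about as much as expressed genes in general. A range of at least 2 log2 units was found for 3 of 9, namely ARID1A, PBRM1 and SMARCA2, against 35% of expressed genes. The lowest line was at least 1 log2 unit below the others for 4 of 9, with ARID2 just past that value, against 35.4%. The highest line was at least 1 log2 unit above the others for SMARCA2 alone, against 33.3%. The median SD was 0.37 for the 9 genes and 0.41 for all expressed genes, and the median range was 1.41 and 1.53. Without SUP-T11 the count with a low line was 2 of 9, and leaving out other lines gave 3 or 4. Over the 36 pairs of the 9 genes the median r was 0.17, and 4 of the 36 were above 0.5, against 4.22% of all pairs of expressed genes. Without SUP-T11 and MOLT-16 all 4 were below 0.5. The pair of ARID1A with ARID2 went from 0.63 to -0.43 and that of PBRM1 with SMARCC1 from 0.66 to -0.05. ARID1A with SMARCB1 went from 0.62 to 0.45.

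SUP-T11 and MOLT-16 were the lines where more than 1 of the 9 genes had its lowest value, with counts too small to set against all genes. On the main probe sets SUP-T11 was the lowest line for ARID1A, ARID2 and SMARCB1, that is 3 of 9, against 13.2% of expressed genes. SMARCB1 was within the technical limit there. Several other probe sets of ARID1B and SMARCA4 were also lowest in SUP-T11, while 1 of ARID2 was lowest in MOLT-16. At least 1 log2 unit below the others in SUP-T11 were 2 of 9, ARID1A and ARID2, against 9.99%. MOLT-16 was the lowest line for PBRM1 and SMARCC1, 2 of 9, against 11.2%, and at least 1 log2 unit below the others for PBRM1 and SMARCA2, 2 of 9, against 9.05%. In MOLT-16, 4 of the 9 genes were below the others by more than the technical limit, namely ARID2, PBRM1, SMARCA2 and SMARCC1, where 15.8% of expressed genes were. The ACTB ratio in MOLT-16 was 1.90 and its array median of 37.6 was the lowest of the 16, up to 45.0. With the arrays centred on their medians, PBRM1 in MOLT-16 had a deviation of -1.69 in place of -1.82, and SMARCC1 of -0.81 in place of -0.95. The part of the ratio and of the array median in these values was not tested.

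The other SWI/SNF subunits were read from a fixed list of 19 genes, of which 18 were expressed and ACTL6B, the neuronal actin-like subunit, was not. A range of at least 2 log2 units was found for 7 of the 18, a low line for 10 and a high line for 4, with a median SD of 0.41, where 35%, 35.4% and 33.3% of expressed genes had such values. DPF3, a reader of histone acetylation in BAF, had the widest range, from 14.04 in CCRF-CEM to 1308 in LOUCY with DU528 next at 1147. SMARCD3, the paralogue of SMARCD1 and SMARCD2, ran from 10.0 in DU528 to 222 in JURKAT. BCL7A, an accessory subunit mutated in lymphoma, ran from 188 in DU528 to 1580 in ALL-SIL, and BCL7C from 132 in P12-ICHIKAWA to 976 in DU528. BICRAL, a subunit of the non-canonical complex that lacks ARID proteins, ran from 193 in MOLT-4 to 1437 in ALL-SIL. PHF10, a PBAF subunit, ran from 321 in SKW-3 to 2214 in MOLT-16, with ALL-SIL next at 2181.

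The ATPases of other remodellers served for comparison, and all 15 listed were expressed. A range of at least 2 log2 units was found for 3, a low line for 2 and a high line for 2, with a median SD of 0.30. SMARCA1, an ISWI ATPase, ran from 5.70 in ALL-SIL to 373 in PEER, and CHD3, of the NuRD complex, from 145 in MOLT-4 to 1528 in LOUCY. CHD9, a chromodomain helicase, ran from 501 in MOLT-16 to 2060 in TALL-1 and CHD1 from 891 in LOUCY to 2646 in MOLT-4. ATRX, which deposits histone variants at repeats, ran from 911 in SKW-3 to 2305 in SUP-T11, and SRCAP, which exchanges histone H2A.Z, from 128 in HSB-2 to 331 in PF-382. MOLT-16 was below the others for 13 of these 15, where 50.2% of expressed genes were, with a median deviation of -0.46, and was the lowest line for 5, against 11.2%. SUP-T11 was below the others for 9 of the 15 and the lowest line for 2, near the 51.7% and 13.2% of expressed genes.

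Chromosomal neighbours were read in the line where each gene was lowest on its main probe set. The 10 nearest expressed genes on each side in RefSeq gene order were taken. Around ARID1A on chromosome 1, none of 20 neighbours was at least 1 log2 unit below the others in SUP-T11. Their median deviation was 0.13, and 9.99% of all expressed genes were that low in SUP-T11. Around PBRM1 on chromosome 3, 1 of 20 neighbours was that low in MOLT-16, with a median of 0.11. Around SMARCC1 on the same chromosome it was 1 of 20, with a median of 0.07, against 9.05% of expressed genes in MOLT-16. Most genes beside these 3 did not share their low values, and the counts are too small to set against the shares of all genes. The neighbours of ARID2 on chromosome 12 had a median of 0.31 in SUP-T11, with 2 of 20 that low, against 9.99% of expressed genes.

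SMARCA2 and ARID1B differed in this respect. SMARCA2 lies near the end of the short arm of chromosome 9, so it had 13 neighbours, 3 of them on the outer side. In P12-ICHIKAWA 11 of the 13 were below the other lines, with a median deviation of -0.71, where 57.2% of expressed genes were below. The lowest were JAK2, the cytokine receptor kinase, at 3.18 against a median of 80.6 in the other lines, and AK3, a mitochondrial kinase, at 1206 against a median of 3185 in the other lines. Around ARID1B on chromosome 6, 17 of 20 neighbours were below the others in LOUCY, with a median of -0.73, and 7 were at least 1 log2 unit below, where 47.8% and 6.04% of expressed genes were. The lowest were DYNLT1, a dynein light chain, at 13.1 against 1641 in the other lines, and TULP4 at 13.9 against 424. These neighbours were named after their values were seen. Among the ARID1B probe sets that were not dim, only the main one was lowest in LOUCY. DNA copy number was not analysed here.

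**Figure D5:**
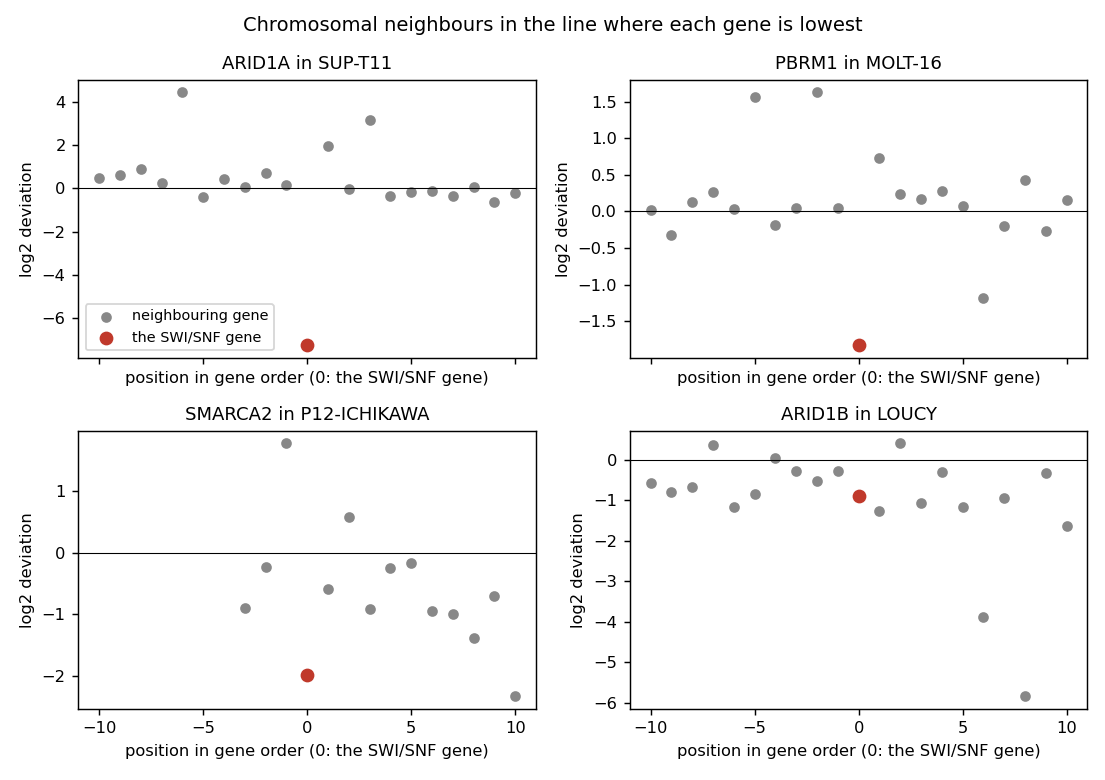
Deviation of expressed neighbouring genes from the median of the other 15 lines, on the log2(intensity + 16) scale, by their position in gene order. The line is that where the SWI/SNF gene at position 0 (red) is lowest on its main probe set, and the vertical scales differ. Around ARID1A and PBRM1 the neighbours centre near 0 (medians 0.13 and 0.11), whereas around SMARCA2 in P12-ICHIKAWA and ARID1B in LOUCY most lie below it (medians -0.71 and -0.73).

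The genes whose levels were most like those of a SWI/SNF gene were found for the 3 with the largest SD. For ARID1A they were CDK6, a cell cycle kinase, with r of 0.99, SEC24C, a vesicle coat subunit, with 0.97, and TRA2B, a splicing factor, with 0.97, all over 16 lines. CDK6 was at 10.2 in SUP-T11 and at 6779 to 13685 elsewhere, and SEC24C was at 9.30 there and at 524 to 1233 elsewhere. Without SUP-T11 the correlations were 0.28, 0.006 and -0.16, so the likeness rests on that 1 line. For PBRM1 they were CD3E, a chain of the T-cell receptor complex, with 0.90, FUBP1, a regulator of MYC, with 0.89, and KAT6A, a histone acetyltransferase, with 0.87. CD3E was at 31.1 in MOLT-16 and at 227 to 391 elsewhere. Without MOLT-16 the values for PBRM1 were 0.19, 0.68 and 0.16. For SMARCA2 they were PLEKHO2 with 0.89, STARD9 with 0.89 and SPG11, a lysosomal protein, with 0.87, and without P12-ICHIKAWA these were 0.87, 0.88 and 0.84.

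Whether other genes followed the ATPases was tested with limma, by regression of every other expressed gene on the ATPase level with Benjamini-Hochberg adjustment over 13294 genes. For SMARCA4, 0% of the genes passed an adjusted p of 0.05, with 0 in number by limma and 1227 at an unadjusted p under 0.05. With quantile normalization of the arrays 6 passed, and 1 passed without ALL-SIL or without LOUCY. SMARCA4 had an SD of 0.21 over the lines, where that of SMARCA2 was 1.13 and the median of the poly-A controls 0.23. The fit on SMARCA4 thus had little spread to work with, and its count does not show that no gene follows SMARCA4. For SMARCA2, 56 genes passed, or 0.421%, of which 45 rose and 11 fell with it. None of the 8 other SWI/SNF genes, the 18 other subunits or the 15 other ATPases was among them. The smallest p among those lists was that of DPF3, with a slope of 0.91, an SE of 0.34 and a limma adjusted p of 0.23, and SMARCA4 itself had a slope of -0.07 with an SE of 0.05 and a limma adjusted p of 0.52.

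Of the genes that rose with SMARCA2, STARD9, a kinesin, had the smallest p, with a slope of 0.80 log2 units per log2 unit of SMARCA2, an SE of 0.11 and a limma adjusted p of 0.025. Its intensity ran from 11.9 in P12-ICHIKAWA to 395 in ALL-SIL. The next were PLEKHO2 with a slope of 0.54, ADGRE5, the adhesion receptor CD97, with 0.78, RIN3, a RAB5 regulator, with 0.96 and TP53INP1, a p53 target, with 1.21. Of those that fell, KBTBD11 had a slope of -1.66, ARHGEF10 -1.57, TMEM121B -0.77, ARPP21, which hosts a microRNA gene and is expressed in immature lymphocytes, -1.85 and PEX5L -1.69. ARPP21 was at 5.20 in DU528 and at 2764 in SKW-3. On chromosome 9, where SMARCA2 lies, 5 of 537 genes passed, or 0.931%, namely DOCK8-AS1, ERMP1, JAK2, KDM4C and PHF19, all rising with it.

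The SMARCA2 calls did not hold with the ACTB ratio in the fit. With that ratio as a covariate 0 genes passed by limma, with 687 at an unadjusted p under 0.05. The ratio had r of -0.67 with SMARCA2, so the fit cannot tell the ratio and the SMARCA2 level apart. No gene passed without DU528, without HSB-2 or without JURKAT. The counts were 8 without PF-382, 11 without P12-ICHIKAWA, 14 without MOLT-4, 17 without SUP-T13, 25 without LOUCY, 32 without SKW-3 and 34 without KOPT-K1. They were 87 without SUP-T11, 104 without ALL-SIL and 129 without CCRF-CEM.

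Markers of the labelled cell type were present in part. Of 8 T-cell markers, CD3D, CD3G, CD7, LCK and PTPRC were above 4 times the table median in all 16 lines, whereas CD3E was in 15 lines, CD5 in 12 and CD2 in 9. DU528 had 11.1 for CD2 and 9.5 for CD5, and CD3E was at 31.1 in MOLT-16. The summed level of the 8 ran from 12402 to 47148. Of B-cell, myeloid, erythroid and stromal markers, 12 were measured, and 9 of them reached that level in no line. The exceptions were CD79B in 4 lines, LYZ in DU528 and HBB in 2 lines. In these bulk samples fewer cells with a transcript and less of it per cell cannot be told apart.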

How the data were processed

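Levels are the intensity values that the authors deposited, 54675 probe sets on each of 16 arrays. Their software, background correction and scaling are not given in the sources at hand, and no further normalization was applied. Array medians ran from 37.6 to 45.0, and precision is limited by having 1 array per line. Of the probe sets, 41042 named a single known gene and 1801 several. Deposited values were taken as log2(intensity + 16). The genes, lists and rules were chosen with earlier results of these data known. Named were the 9 genes, the 6 genes of each comparison list with the largest range, the 3 genes most like each of the 3 genes with the largest SD, partners in 6 planned pairs, and, for either sign of slope in a fit, the 5 genes of smallest p. Other names were chosen after their values were seen. Regressions used limma 3.58.1 in R 4.3.3 (lmFit, eBayes with trend and robust), tested on simulated data. Descriptions used Python 3.11.15, numpy 2.4.6 and pandas 2.3.3. Alternatives covered the pseudocount, scaling, probe set choice, filter, covariate and each line left out.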

Additional observations from a re-analysis of the deposited data

How the results depend on the processing

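Levels rest on 1 array per line, and the technical limit covers array error only. No paired analysis was possible because the lines form 1 group. Of 124 deviations in the lowest and highest lines under other settings, 104 moved by less than the spread over the other lines. Under another probe set choice 9 changed sign. Of these, 2 had been past the technical limit, both of SMARCA2 without _x_at and _s_at probe sets, where only a dim probe set remained, at 0.34 in P12-ICHIKAWA and -0.42 in DU528. The other 7, within the limit, were of ARID1B in SKW-3 (3 settings), SMARCA4 in PF-382 and in HSB-2, PBRM1 in CCRF-CEM and SMARCB1 in TALL-1. Those of SMARCA4, PBRM1 and SMARCB1 were also read from dim probe sets. Without _x_at and _s_at probe sets ARID1A could not be read, and the counts became 1 gene with a wide range and 2 with a low line. The wide range was that of SMARCA2 on its dim probe set, from 26.4 to 155. The deviation of ARID1A in SUP-T11 ran from -9.11 to -4.86 over the settings. That of PBRM1 in MOLT-16 was -0.54 without _x_at and _s_at probe sets.

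The r of ARID1A with ARID1B became 0.41 with the mean of all probe sets. With the most variable probe set of each gene it was 0.53, that of ARID2 with PBRM1 was -0.075 and that of SMARCB1 with SMARCE1 was -0.16. The most variable probe sets of PBRM1 and SMARCB1 were dim, so their r says little about these genes. Without _x_at and _s_at probe sets r was -0.10 for SMARCA2 with SMARCA4, 0.20 for ARID2 with PBRM1 and 0.33 for SMARCC1 with SMARCC2. For SMARCA2 and SMARCA4 only dim probe sets remained there, so the same holds for their r. With each line left out r ran from 0.14 to 0.60 for ARID2 with PBRM1, from 0.31 to 0.76 for SMARCC1 with SMARCC2 and from 0.075 to 0.52 for SMARCB1 with SMARCE1, and the count with a low line from 2 to 4. The cause was not tested.

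The count of genes following SMARCA4 was 6 with quantile normalization and 0 to 1 with each line left out. That for SMARCA2 was 36 with log2(intensity + 1), 32 with centred arrays, 8 with quantile normalization, 12 without the filter on low values, 0 with the ACTB ratio and 0 to 129 with each line left out. Leaving out each line for the 3 counts over the 9 genes was chosen after seeing the data. Without the filter 26.3%, 24.8% and 27.1% of all genes had a wide range, a low line and a high line.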

Other observations

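In MOLT-16 the SWI/SNF subunits outside the 9 genes went both ways. MOLT-16 was the lowest of the 16 lines for SMARCC2, SMARCD1, BRD7 and BRD9, that is 4 of the 18 expressed subunits against 11.2% of expressed genes, and the highest for PHF10 and DPF1. It was below the others for 9 of the 18, with a median deviation of -0.12, where 50.2% of expressed genes were below. Of the other remodeller ATPases it was the lowest line for SMARCA5, CHD2, CHD8, CHD9 and SMARCAD1. BRD9, the bromodomain subunit of the non-canonical complex, was at 303 in MOLT-16 and had a median of 823, with a deviation of -1.44. SMARCC2 had a deviation of -1.15, CHD9 of -1.60 and SMARCA5, an ISWI ATPase, of -0.69. BRD7, a PBAF subunit, was at 2005 there, within the technical limit of the others, with a deviation of -0.30. SMARCE1, CHD4 and HELLS had their lowest value in SUP-T11, of which none deviated by as much as 0.65 log2 units. These genes were named after their values were seen, and none of these differences was tested.

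SMARCD2 was correlated with several of its neighbours on chromosome 17. Of its 20 nearest expressed genes, 8 had r of at least 0.5 with it over the 16 lines, where 3.20% of all expressed genes had, and the median r was 0.42. For SMARCA2 this held for 5 of 13 neighbours, where 9.25% of expressed genes had such an r, and the median was 0.44. This reading of r was added after the values were seen, and points share the array scaling. In PEER, the line with the lowest SMARCD2, none of its 20 neighbours was at least 1 log2 unit below the others. Their median deviation there was 0.07.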
